A study of Caenorhabditis elegans with 4 samples.

Results

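A set of 83 genes for cytosolic ribosomal proteins of Caenorhabditis elegans was described in peak lists from chromatin immunoprecipitation followed by sequencing (ChIP-seq) of CEY-2, a Y-box protein. They were chosen by name among the 19985 protein-coding genes of build WBcel235 (ce11): symbols beginning rpl- or rps-, together with rla-0, rla-1, rla-2, rack-1 and ubl-1. Counting rpl- and rla- genes as large subunit, the set held 50 large and 33 small subunit genes. The rule uses names and no measured value, but the gene set was picked with earlier results of these data known. The worms were whole hermaphrodites at the L4 larval stage, of strain OP358, genotype unc-119(tm4063) III; wgIs358, which expresses CEY-2 with a GFP-FLAG tag at its C terminus, and the tag was recovered with an antibody against GFP. All 4 libraries belonged to this 1 group and came from 3 biological replicates, of which replicate 2 had 2 technical libraries merged by the authors. Since whole animals were used, tissues cannot be told apart, and neither the control used for calling nor an untagged strain was analysed here.

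A ribosome consists of a large subunit, which joins amino acids and carries the exit tunnel for the new protein, and a small subunit, which reads the messenger RNA. Their proteins are needed in equal amounts, and their genes are among the most strongly transcribed in growing cells. Y-box proteins carry a cold shock domain that binds RNA and single-stranded DNA. The family was named after the Y-box, a promoter element with the core CCAAT, and in worms its members are known mainly as RNA-binding proteins of the germline. Many worm transcripts, those of ribosomal proteins included, are trans-spliced to a short leader RNA, so that an annotated gene start can lie downstream of the site where transcription begins.

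Each list gave for every peak a summit position and a signal value, which the caller computed relative to a control and which can be compared only among peaks of 1 list. The list thresholded by the irreproducible discovery rate (IDR), a measure of how well ranks recur between replicates, held 611 peaks. The pooled list held 25484, and the lists of replicates 1, 2 and 3 held 30000, 30000 and 21628, background regions included. No list gives read counts, so the depth is unknown. A gene was counted when a summit lay within 500 bp of its annotated start, and its best peak was the one of highest signal.

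A peak of the IDR list lay at 7 members, all with the summit upstream of the start. Of all coding genes 0.831% had an IDR summit upstream. They made up 83.4% of the 199 coding genes with an IDR peak, so an upstream position was usual. The IDR peaks of members lay at the following genes. These were rpl-3, rpl-15, rpl-20, rpl-35 and rpl-12 of the large subunit and rps-19 and rps-12 of the small subunit. The sequences at the highest 4 summits are shown first because they have short words in common that were not found at the other 3. Each run gives the bases within 75 bp of the IDR summit in build WBcel235, on the strand of the gene, 5′ to 3′. Capitals mark every AGTGTA and GCGTGTTT on either strand (TACACT is AGTGTA in reverse complement). Both words were picked after these sequences had been read.
rpl-3: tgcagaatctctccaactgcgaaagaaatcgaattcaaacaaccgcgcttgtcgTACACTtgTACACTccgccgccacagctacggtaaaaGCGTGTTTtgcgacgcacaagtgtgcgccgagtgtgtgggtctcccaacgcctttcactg
rpl-15: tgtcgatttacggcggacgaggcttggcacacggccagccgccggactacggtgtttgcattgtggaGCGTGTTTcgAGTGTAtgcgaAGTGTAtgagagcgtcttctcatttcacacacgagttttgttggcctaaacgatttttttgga
rpl-20: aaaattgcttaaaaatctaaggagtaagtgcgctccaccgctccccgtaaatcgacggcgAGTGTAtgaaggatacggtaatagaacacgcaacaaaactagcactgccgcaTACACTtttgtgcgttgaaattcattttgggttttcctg
rpl-35: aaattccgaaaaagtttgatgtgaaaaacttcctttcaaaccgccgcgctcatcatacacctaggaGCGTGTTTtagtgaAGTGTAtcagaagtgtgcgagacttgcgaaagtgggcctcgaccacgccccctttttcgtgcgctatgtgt
The windows were chrIII:3867486-3867636 (plus strand) for rpl-3, chrIV:654843-654993 (minus strand) for rpl-15, chrIV:4750004-4750154 (minus strand) for rpl-20 and chrIII:7854607-7854757 (plus strand) for rpl-35. None of these windows overlapped an annotated exon. For comparison, the window at rpl-12 (chrIV:13240652-13240787, minus strand, ending 1 bp before the gene start) held neither word. It did share the unmarked stretch aagtgcgctccac with the window at rpl-20. How often that stretch occurs elsewhere was not counted.
rpl-12: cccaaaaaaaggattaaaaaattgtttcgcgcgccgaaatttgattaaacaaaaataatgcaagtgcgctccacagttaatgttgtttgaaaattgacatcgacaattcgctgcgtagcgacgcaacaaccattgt

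The middle of an AGTGTA lay 10 bp from the pooled summit of rpl-3, 5 bp from that of rpl-15, 12 bp at rpl-20 and 8 bp at rpl-35. The middle of GCGTGTTT lay 20, 4 and 5 bp from the summits of rpl-3, rpl-15 and rpl-35, and the word was not found at rpl-20. Within 100 bp of the summit, AGTGTA occurred on either strand at 4 of the 7 IDR members (57.1%), against 11.8% of all 586 nuclear IDR peaks and 7.93% of the 25458 nuclear peaks of the pooled list. GCGTGTTT occurred at 3 of 7 (42.9%), against 2.05% and 0.605%. As the words were chosen on these 4 windows, the counts are a description and no test was made.

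The words were not a general feature of the gene set. In the 500 bp upstream of the start, AGTGTA was found for 4 of the 44 members whose pooled peak lay outside the IDR list (9.09%) and for 1 of the 32 with no pooled peak, rpl-5 (3.13%), against 17.7% of 19973 nuclear coding genes. GCGTGTTT was found for 0 and 1 of them, the latter being rpl-18, against 1.75% of coding genes. Both words together were found upstream of rpl-3, rpl-15 and rpl-35 and of no other member, and upstream of 0.275% of coding genes.

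The other words searched included a GA repeat, transcription factor sites and the core of the Y-box, and none of the searched words contains another. GAGAGA, the GA repeat, occurred within 100 bp of 1 of the 7 summits, that of rpl-3, against 42.8% of nuclear IDR peaks. The E-box CACGTG occurred at 0 of 7 against 19.8%, and TGATAA, a site of GATA factors, at 0 of 7 against 41.3%. CCAAT, the core of the Y-box, was found at rps-19 and rps-12, which is 2 of 7 (28.6%) against 28.7%. TATAAA was found at 0 of 7 against 17.7%, and TTTCAG, a worm splice acceptor, at rpl-15 alone against 11.1%. Over the 49 distinct pooled peaks of members the shares were 22.4% for GAGAGA, 4.08% for CACGTG, 14.3% for TGATAA and 36.7% for CCAAT, against 15%, 4.30%, 24.1% and 34.5% of all nuclear pooled peaks. Both strands were searched for each word. The GC content within 100 bp of the summit had a median of 44.3% for the 7 members, from 37.8% to 45.8%, and of 39.8% for all nuclear IDR peaks.

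The highest peak lay at rpl-3, whose product reaches towards the centre of the large subunit where peptide bonds are formed. The gene spans positions 3867854 to 3869587 of chromosome III, and its IDR peak covered 3867466 to 3867648. It ranked 18 in the pooled list with a signal of 163. Its rank was 24 in replicate 1 (signal 50.8), 21 in replicate 2 (74.7) and 24 in replicate 3 (32.8), so the replicates gave it nearly the same place. The 3 replicate summits lay between -292 and -247 bp from the start, a spread of 45 bp.

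The peaks of rpl-15, rpl-20 and rpl-35 were next. rpl-15, a protein of the large subunit core, had a pooled signal of 95.9 (rank 36) with its summit at -342 bp, and ranked 57, 32 and 301 in replicates 1, 2 and 3. rpl-20 had a signal of 90.4 (rank 42) at -301 bp and ranked 138, 57 and 58. rpl-35, whose product lies at the exit of the tunnel, had a signal of 71.3 (rank 74) at -452 bp and ranked 178, 47 and 463. Each was thus among the 611 highest peaks of every replicate, as was rpl-3. The replicate summits of each gene lay within 37 bp of one another. Of all coding genes, 41 had a summit among the 611 highest of every replicate (0.205%), and 4 of the 83 members did (4.82%), all of the large subunit.

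The remaining 3 stood high in only 2 of the 3 replicates. rps-19, a small subunit protein whose human counterpart is mutated in Diamond-Blackfan anaemia, had a pooled signal of 51.9 (rank 203) at -259 bp and ranked 157, 298 and 670. rpl-12, at the base of the stalk that binds elongation factors, had a signal of 46.6 (rank 285) at -61 bp and ranked 247, 522 and 2567. rps-12 had a signal of 41.5 (rank 399) at -118 bp and ranked 2657, 335 and 492. Replicate 3 was the low one for rps-19 and rpl-12, and replicate 1 for rps-12. The next member by pooled signal was rpl-28 at 29.6 (rank 1005), so no member lay just below the threshold, where the lowest IDR signal was 35.9.

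**Figure D1:**
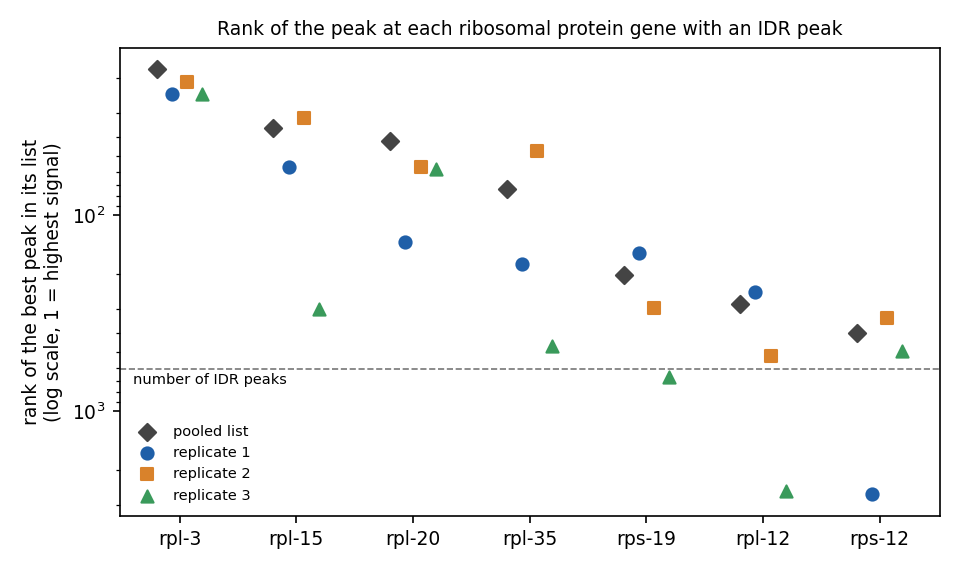
Rank of the best peak within 500 bp of the start of each of the 7 members with an IDR peak, in the pooled list and in each replicate list (vertical log axis, rank 1 at the top has the highest signal). The dashed line marks rank 611; rpl-3 lies between 18 and 24 in all 4 lists, while rpl-12 falls to 2567 in replicate 3 and rps-12 to 2657 in replicate 1.

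Some of these summits lay between neighbouring genes and cannot be assigned to 1 of them. The summit at rpl-20 lay at -161 bp from the start of Y17G9B.5, and that at rps-19 at -186 bp from the start of hsr-9, a gene related to human 53BP1; both were nearer than the ribosomal gene. The rps-12 summit lay at -175 bp from the divergent gene ska-3, which acts at kinetochores, and at -198 bp from F54E7.10, a small nucleolar RNA (snoRNA) gene. The rpl-12 summit lay at -332 bp from lin-54, which encodes a DNA-binding subunit of the DREAM complex, and the rpl-15 summit at -472 bp from K11H12.8. No other gene start lay within 500 bp of the summits at rpl-3 and rpl-35.

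Shares of genes with high peaks were larger among the members than among coding genes in each replicate. In the IDR list 7 of 83 members had a peak (8.43%, exact Clopper-Pearson 95% interval 3.46 to 16.6%), and the share of all coding genes was 0.996%. Among the 611 highest peaks of each replicate, 6, 8 and 6 members had one in replicates 1, 2 and 3 (7.23%, 9.64% and 7.23%), against 0.961%, 0.976% and 1.07% of coding genes. Members exceeded other coding genes by 7.06 ± 1.42 percentage points (SD, n = 3), higher in 3 of 3 replicates. The two-sided exact sign-flip permutation test over replicates gave p = 0.25, the smallest p that 3 replicates allow. In at least 2 replicates 7 members had such a peak, the same 7 as in the IDR list, against 0.615% of coding genes, and without replicate 2 there were 4 (4.82%), against 0.330%. rpl-1 in replicate 2 (rank 553) and rps-20 in replicate 3 (rank 417) had one in a single replicate. The interval covers counting error only and takes genes as independent, although neighbouring genes can share a peak. With a window of 250 bp, 2 members had an IDR peak (2.41%), rpl-12 and rps-12, against 0.635% of coding genes.

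Below the highest ranks many more members had a peak. In the full pooled list 51 of 83 had one (61.4%), against 30.4% of coding genes. In the full lists of replicates 1, 2 and 3 the counts were 42 (50.6%), 50 (60.2%) and 44 (53.0%), against 32.5%, 32.7% and 24% of coding genes. The difference from other coding genes was 25 ± 5.91 points (SD, n = 3, exact sign-flip permutation p = 0.25). That comparison was chosen after seeing the data. A summit was present in all 3 replicates for 24 members (28.9%), against 7.07% of coding genes. With a window of 1000 bp the pooled count was 64 (77.1%) against 45% of coding genes.

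**Figure D2:**
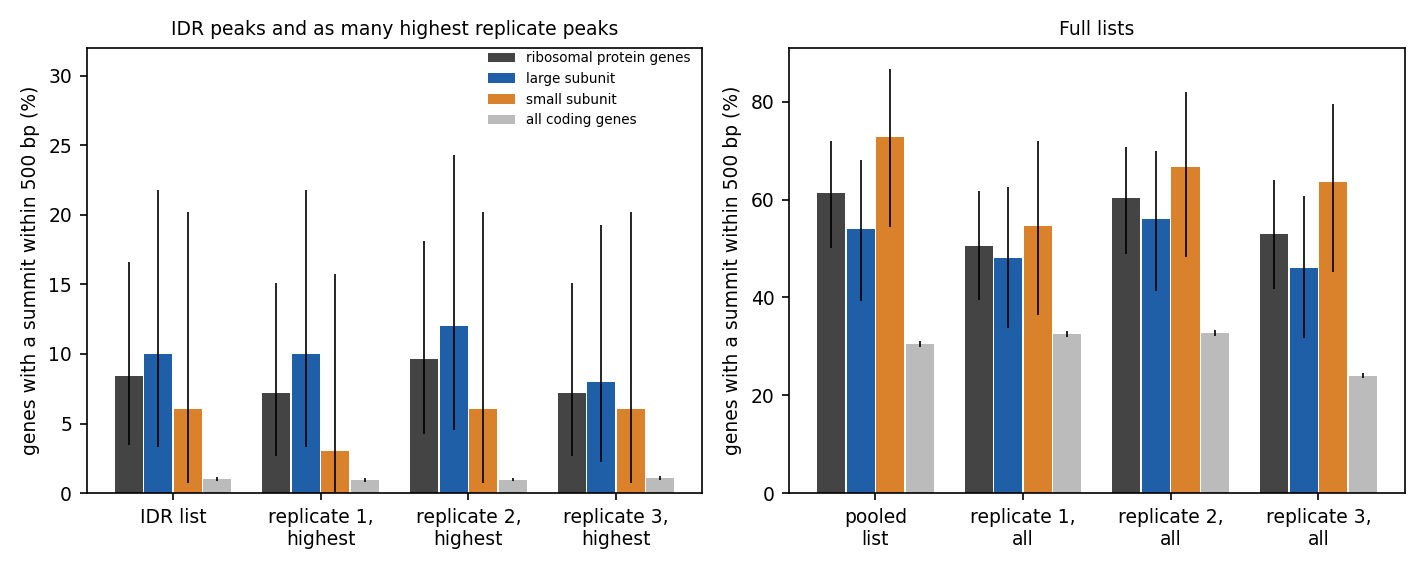
Share of genes with a summit within 500 bp of the start (vertical axis, %) for all ribosomal protein genes, the large and small subunit and all coding genes; the left panel shows the IDR list and the 611 highest peaks of each replicate, the right panel the full lists, and bars carry exact 95% intervals. The large subunit bar is above the small subunit bar in every group on the left and below it in every group on the right; the intervals count genes as if independent and are no test.

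The best pooled peaks of the members had a median signal of 17.3 and a median rank of 3920. For all 6082 coding genes with a pooled peak the medians were 11.8 and 10258.5. By rank, 16 members (19.3%) had a summit among the highest 2000 pooled peaks and 29 (34.9%) among the highest 5000, against 3.72% and 8.58% of coding genes. After the 7 IDR members no member had its best peak between ranks 612 and 1000, and 9 had it between 1001 and 2000. They were led by rpl-28 (29.6), rps-20 (28.2), of which no summit was found in replicate 1, and rps-1 (27.0). The peak of rpl-28 also served mrpl-49, a gene of the mitochondrial ribosome.

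**Figure D3:**
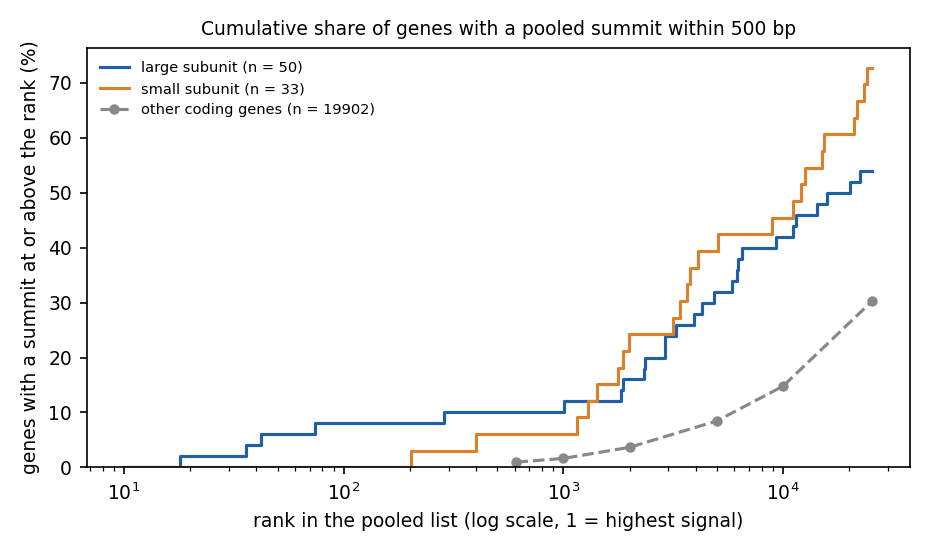
Cumulative share of genes (vertical axis, %) with a pooled summit within 500 bp at or above a given rank (horizontal log axis, rank 1 has the highest signal), for the 50 large and 33 small subunit genes and 19902 other coding genes. The large subunit leads at the highest ranks, the small subunit ends higher at 72.7% against 54%, and both lie above the dashed line of the other coding genes at its 6 points.

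Summits at the members lay farther upstream than at other genes. Of the 51 best pooled summits 47 (92.2%) were upstream of the start, with a median position of -313 bp and quartiles of -388.5 and -227.5 bp. As shares of all 83 members, the 47 upstream and 4 downstream summits were 56.6% and 4.82%, against 20% and 10.4% of coding genes. Upstream summits prevailed at related genes too. Of 70 genes for mitochondrial ribosomal proteins 45.7% had an upstream and 8.57% a downstream summit. Of 27 ribosome biogenesis genes 37% and 7.41% did. At the 6031 other coding genes with a pooled peak 65.4% were upstream, with a median of -110 bp and quartiles of -267 and 95 bp. The medians of the members were -296, -266 and -281.5 bp in replicates 1, 2 and 3, and those of the other coding genes -85, -92 and -81 bp. The bin from -400 to -300 bp held most, 16 of 51 (31.4%), against 700 of 6031 other coding genes (11.6%). The 100 bp on either side of the start held 3 members, 2 upstream and 1 downstream. For the 6031 other coding genes these bins held 846 and 598. With the window widened to 1000 bp, the median of the members was -320 bp and 8 of 64 summits (12.5%) lay beyond 500 bp upstream, against a median of -148 bp and 23.3% for other coding genes. These are descriptions, since genes are not replicates of the experiment.

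**Figure D4:**
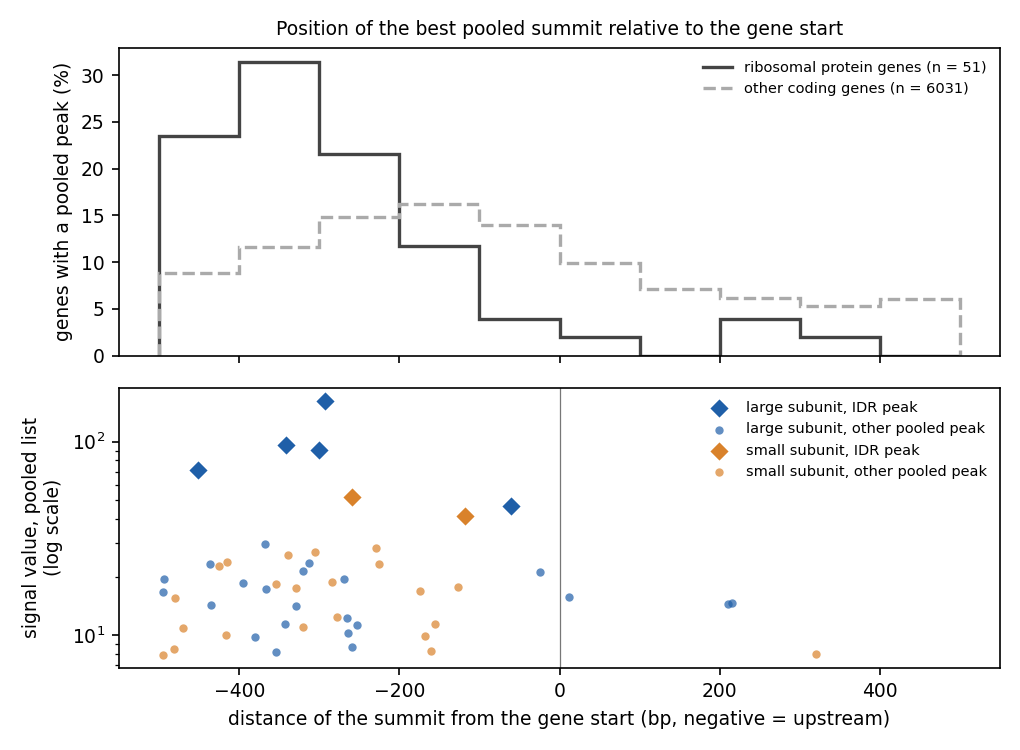
Distance of the best pooled summit from the gene start (horizontal axis, bp, negative is upstream). The upper panel gives the share of genes per 100 bp bin for the 51 members with a pooled peak and 6031 other coding genes; the lower panel gives the signal (log axis) of each member by subunit, with diamonds for IDR peaks, and most members lie between -500 and -200 bp.

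By annotation, 38 of the 51 summits fell between genes, all 7 IDR summits among them, and 8 in exons of noncoding RNA genes. At 4 genes the summit was inside the member itself: rpl-7A in the 5′ UTR, rpl-27 in the coding sequence, and rpl-33 and rps-26 in an intron. The remaining summit, that of rpl-24.2, lay in an intron of C03D6.1. Another coding gene started nearer to the summit than the member did in 19 of 51 cases. For these pooled summits, neither the annotation nor the nearer start was counted for other coding genes. These counts therefore do not set the members apart. In the IDR list, counting a peak only for its nearest coding start gave 5 members (6.02%), against 0.911% of coding genes. The 51 genes had 49 distinct peaks, because rpl-36 and rps-14, which are divergent neighbours, shared one (signal 23.3) and rpl-39 and rps-30 shared another (11.4).

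Most pooled peaks of the members were not matched in every replicate. For 23 of the 51 members each replicate had a summit within 500 bp of the gene start. The same held for 1291 of the 6031 other coding genes with a pooled peak. For 17 members (33.3%) each replicate had one within 200 bp of the pooled summit. Among other coding genes with a pooled peak 13.7% had one in all 3. Over all 83 members the share was 20.5%, against 4.21% of coding genes.

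Large and small subunit genes were compared next. In the IDR list 5 of 50 large (10%) and 2 of 33 small subunit genes (6.06%) had a peak, a difference of 3.94 points that rests on 1 list and was not tested. Among the 611 highest peaks of replicates 1, 2 and 3 the large subunit share was higher by 6.97, 5.94 and 1.94 points, on average 4.95 ± 2.66 (SD, n = 3), with p = 0.25 in the two-sided exact sign-flip permutation test. In the full lists the order was opposite in every replicate: 48%, 56% and 46% of large against 54.5%, 66.7% and 63.6% of small subunit genes. This difference of -11.6 ± 5.61 points (SD, n = 3) also had an exact sign-flip permutation p of 0.25, and the pooled list gave 54% against 72.7%, a difference of -18.7 points in 1 list, not tested. With a window of 1000 bp the pooled shares were 78% and 75.8%. The large minus small difference in high peaks turned to -1.03 points with a window of 250 bp. Neither order passed a test, and 3 replicates cannot give a smaller p. Median pooled signals were 17.3 for 27 large and 17.2 for 24 small subunit genes, and median positions -320 and -295 bp.

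The members whose symbols do not begin with rpl- or rps- had low-ranking pooled peaks or none. rack-1, a signalling scaffold bound to the small subunit, had a best pooled peak at rank 21794, and ubl-1, which encodes a small subunit protein fused to a ubiquitin-like protein, at rank 20997. The genes of the large subunit stalk, rla-0, rla-1 and rla-2, had no pooled summit within 500 bp. rla-0 had one in replicates 2 and 3 (ranks 13794 and 6764), rla-1 in replicate 3 (rank 14837) and rla-2 in none. In all, 32 members had no pooled summit, 23 large and 9 small, among them rps-4, which had one in every replicate (ranks 1639, 3318 and 12975).

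No summit was found in any list for 13 members (15.7%), against 40.1% of coding genes. These were rpl-11.1, rpl-13, rpl-18, rpl-21, rpl-25.2, rpl-34, rpl-41.1, rpl-42 and rla-2 of the large subunit and rps-5, rps-6, rps-8 and rps-18 of the small subunit. At this unknown depth an absent peak does not show that nothing was bound. Among members whose symbols differ only by a suffix after a point, rpl-11.2 had a pooled summit (rank 6510) and rpl-11.1 none, rpl-24.2 had one (rank 2363) and rpl-24.1 none, rpl-41.2 had one (rank 9289) and rpl-41.1 none, and neither rpl-25.1 nor rpl-25.2 had one. Both rpl-36 on chromosome III and rpl-36.A on chromosome II had one (ranks 1873 and 3262). These genes were grouped by symbol alone. Whether their sequences or products are alike was not examined, so a shared symbol stem does not make them copies of each other. Whether reads that match several places in the genome were kept is not given in the sources used here.

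Chromosome III held 19 members, of which 16 had a pooled peak and 3 an IDR peak, and chromosome IV held 19, of which 11 and 3 did. Chromosome I had the most members, 25, of which 12 had a pooled peak and 1, rps-19, an IDR peak. The share of coding genes with a pooled peak was 34.7% on III, 32.2% on IV and 31.3% on I. Chromosomes II, V and X held only 10, 8 and 2 members, of which 6, 5 and 1 had a pooled peak and 0 an IDR peak. The share of coding genes with a pooled peak was 28.2%, 28.5% and 29.3% there. The share with an IDR peak was not counted by chromosome, so the IDR counts do not set chromosomes apart.

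Other genes of ribosome production were counted in the same way. Of 70 genes for mitochondrial ribosomal proteins (symbols mrpl- and mrps-) 0 had an IDR peak, and of 27 ribosome biogenesis genes 0 did. An approximate upper limit of the share, 3 divided by the number of genes, was 4.29% and 11.1%. It is not the exact interval given for the members. As 0.996% of coding genes had an IDR peak, counts of 0 in lists of this size do not set them apart from coding genes at large. In the full pooled list 38 of the 70 (54.3%) and 12 of the 27 (44.4%) had a summit, against 30.4% of coding genes. The highest mitochondrial ribosomal gene was mrpl-55 at rank 774, followed by mrpl-49 (rank 1005, the peak shared with rpl-28) and mrps-31 (rank 1171). The highest ribosome biogenesis gene was pro-1, which is needed for pre-rRNA processing, at rank 1273. Among the 611 highest peaks, mrpl-55 and mrps-31 had one in replicate 3 and pro-1 in replicate 1, and none of these genes had one in 2 replicates. The difference between these lists and the members was not tested.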

How the data were processed

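The deposited data were ChIP-seq peak lists in narrowPeak format, 5 in build ce11 and 5 in ce10; the ce10 lists were not used, since coordinates were not converted. The deposited README files trace the pooled list to the 3 replicate alignments and a control, and the IDR list to the pooled and replicate lists. The names and versions of aligner and peak caller were not given in the sources used here. Column 7 was used, the signal value per peak that the authors' caller wrote. Nearly all peaks of a list have 1 fixed width with the summit at the centre, so a summit is coarse. In the IDR list 583 peaks were 390 bp wide and 28 were not, the peaks of rpl-3 and rpl-20 among the latter.

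Genes came from Ensembl release 115 (WBcel235) and sequences from the RefSeq genome of the same assembly; no peak reached beyond a chromosome's end. Summits (peak start plus offset) and coordinates were written 1-based. Computations used Python 3.11.15, numpy 2.4.6, scipy 1.17.1 and statsmodels 0.14.6. The 2 differences between gene groups were tested over the 3 replicates with a two-sided exact sign-flip permutation test, on as many highest peaks per replicate as the IDR list holds (611). Genes and peaks are not replicates and were not tested. The peak search gave back planted summits on simulated data.

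Members, lists and words were chosen with earlier results of these data known. The name rule did not check the product of each gene, and it leaves out ribosomal protein genes with other symbols. ubq-2, looked up apart from the members, had no IDR or pooled summit within 500 bp of its start. The ribosome biogenesis list named 35 symbols, of which 27 were found. Named genes were the members with an IDR peak or a high peak in at least 2 replicates, the 10 highest by pooled signal, rla-0, rla-1, rla-2, rack-1, ubl-1, and genes sharing an IDR summit; other names were chosen after their values were seen. Alternatives varied the window, the start, the assignment, the number of peaks and the replicates. The sequence at rps-12 is not reported here.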

Additional observations from a re-analysis of the deposited data

How the results depend on the processing

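In 4 of 48 alternative values the direction reversed, and 6 counts moved by over 1.5 times; differences that kept their sign could still change in size. With a window of 250 bp the members with an IDR peak numbered 2, those with a high peak in at least 2 replicates 2, and those with a summit in all replicates 4, in place of 7, 7 and 24, against 0.635%, 0.375% and 2.64% of coding genes. The last count was 38 with 1000 bp (45.8%, against 16.2% of coding genes). With 5 times as many highest peaks (3055 per replicate) 11 members had a high peak in at least 2 replicates (13.3%, against 2.92%). Leaving out each replicate in turn gave 4 to 6 members with a high peak in both others (coding genes 0.330 to 0.355%), 30 to 32 with a summit in both (11.4 to 14.9%), 6.24 to 7.50 points for members minus other coding genes, and 3.94 to 6.45 points for large minus small subunit. The large minus small difference reversed to -1.03 points with 250 bp, in the IDR list and in the replicates, to -4.89 points with 5 times as many peaks, and to -11.6 points with all peaks of each list, an alternative added after the data were seen. The causes were not tested. Members exceeded other coding genes in every setting, by 1.81 points (250 bp) to 25 points (all peaks). The differences over replicates were taken within each replicate and so are paired by construction. The IDR difference of 3.94 points was 0.909 with peak overlap. The lists give no counts, so what depth limits is unknown.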

Other observations

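The words AGTGTA and GCGTGTTT, picked at the ribosomal protein genes, occurred together within 100 bp of the summit of 7 of the 586 nuclear IDR peaks (1.19%) and of 18 of the 25458 nuclear pooled peaks (0.0707%). Besides rpl-3, rpl-15 and rpl-35, the 7 peaks included those at cdc-48.1 (chromosome II, 10563390 to 10563779, signal 107, rank 28), which encodes an AAA ATPase that extracts proteins marked with ubiquitin, and at cox-5A (chromosome III, 12905020 to 12905409, signal 64.4, rank 101), a subunit of cytochrome c oxidase. The other 2 had no coding gene start within 500 bp. One of them ranked 24 with a signal of 122 (chromosome II, 7337630 to 7337781) and the other 388 with a signal of 41.9. Of these 7 peaks, 5 ranked 74 or higher. Both shares include the peaks of rpl-3, rpl-15 and rpl-35, on which the words were picked, and are raised by them. The IDR peaks also stand in the pooled list, so the shares are not independent and were not tested.

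Among the 83 members, 14 host a snoRNA gene on the same strand within their span, against 145 of 19902 other coding genes. Hosts made up 2 of the 7 members with an IDR peak (rpl-15 and rps-12), 7 of the 44 with another pooled peak and 5 of the 32 with none.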
